A study of Mus musculus with 82 samples.

Results

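The Wnt targets and feedback inhibitors Axin2, Dkk1, Notum, Sfrp1, Sfrp5, Sp5, Sp8 and Fzd10 were examined for binding of the T-box factors Eomes and Brachyury in differentiating mouse cells. They were taken as a named list of 8 among 21887 coding genes. A ChIP-seq peak was assigned to a gene when its midpoint lay within 50 kb of the gene span on the mm10 build. By this rule 130 of 132113 listed peaks belonged to the 8 genes. They comprised 42 of 30129 EoGFP peaks, 14 of 27588 BraGFP peaks, 31 of 36203 EoVP16 peaks and 43 of 38193 EoV5 peaks.

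Wnt ligands bind Frizzled receptors together with an Lrp co-receptor and thereby stop the destruction complex from degrading beta-catenin, which then activates target genes with Tcf and Lef factors. Several direct targets encode inhibitors of the same pathway, so that a cell receiving the signal limits it. In the early embryo, Wnt signalling acts in the posterior epiblast, where the primitive streak forms and where Eomes and Brachyury are needed for endoderm and mesoderm.

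The series holds 82 samples, of which 66 are RNA-seq, 12 ChIP-seq and 4 ATAC-seq, and 4 peak lists made from 6 of the ChIP-seq libraries were used here. All 6 came from A2lox.Cre mouse embryonic stem cells in which both Eomes and Brachyury were knocked out (dKO), differentiated as embryoid bodies and harvested on day 5. Activin A was given at 30 ng/ml from day 2, and doxycycline over the same days at a dose on which the labels disagree (5 µg/ml in the growth protocol, 5 mg/ml in the treatment protocol). Doxycycline switched on 1 construct per line, so each protein was measured without its endogenous counterpart and at a level set by induction. EoGFP and BraGFP are Eomes and Brachyury joined to green fluorescent protein, each with 2 libraries and an anti-GFP antibody. EoVP16, which carries the VP16 activation domain, and EoV5, tagged with the V5 epitope, had 1 library each and an anti-V5 antibody. Whether a line was 1 clone was not stated. There was 1 peak list per construct, so no spread between replicates could be measured and no difference below was tested. The lists were limited to pileups of at least 120 in EoGFP, 40 in BraGFP, 36 in EoVP16 and 60 in EoV5, and library depth was unknown, so numbers of peaks in different lists are not amounts of binding. Peak lists carry no expression values, so the labelled cell state could not be checked against marker genes.

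An entry was found for 6 of the 8 genes in the RefSeq promoter table of GRCm38.p6, and Notum and Sfrp1 had none. The 250 bases before each start that lay inside a peak of at least 1 list are printed below in the direction of transcription, because the genes differed in which construct covered them, with the coordinates of the printed bases. The Axin2 start lay in a peak of all 4 lists (chr11:108920099-108920348, plus strand). The Dkk1 start lay in EoGFP, EoVP16 and EoV5 peaks (chr19:30549497-30549746, minus strand). Only EoGFP covered the Sp5 start (chr2:70474673-70474922, plus strand), and only EoVP16 covered 1 of the 3 listed Sp8 starts (chr12:118846983-118847232, plus strand). Only EoV5 covered the Sfrp5 start (chr19:42202253-42202502, minus strand). Over the 32851 starts in the table, 28.3% lay in an EoGFP peak, 14.8% in a BraGFP peak, 37.4% in an EoVP16 peak and 23.2% in an EoV5 peak. Capitals mark every match, on either strand, to the T-box letters TCACACC or GTGTGA and to the Tcf/Lef letters CTTTGAT or CTTTGTT.
Axin2: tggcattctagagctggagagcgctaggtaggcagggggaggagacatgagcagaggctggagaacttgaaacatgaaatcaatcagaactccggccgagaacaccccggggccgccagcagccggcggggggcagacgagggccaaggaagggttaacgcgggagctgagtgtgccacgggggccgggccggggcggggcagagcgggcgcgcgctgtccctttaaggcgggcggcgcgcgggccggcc
Dkk1: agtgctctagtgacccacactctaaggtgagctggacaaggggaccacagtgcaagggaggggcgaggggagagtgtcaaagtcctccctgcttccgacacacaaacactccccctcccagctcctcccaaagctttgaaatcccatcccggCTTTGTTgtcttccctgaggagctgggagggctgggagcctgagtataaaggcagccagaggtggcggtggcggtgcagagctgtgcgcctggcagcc
Sp5: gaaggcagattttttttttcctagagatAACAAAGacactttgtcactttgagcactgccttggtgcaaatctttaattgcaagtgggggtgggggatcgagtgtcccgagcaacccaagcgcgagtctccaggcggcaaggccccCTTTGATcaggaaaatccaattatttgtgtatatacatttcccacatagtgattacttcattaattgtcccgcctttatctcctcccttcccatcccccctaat
Sp8: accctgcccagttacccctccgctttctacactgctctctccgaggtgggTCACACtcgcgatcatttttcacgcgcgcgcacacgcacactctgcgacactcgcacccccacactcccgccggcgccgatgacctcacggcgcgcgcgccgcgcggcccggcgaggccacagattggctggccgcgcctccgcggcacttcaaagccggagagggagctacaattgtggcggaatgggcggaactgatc
Sfrp5: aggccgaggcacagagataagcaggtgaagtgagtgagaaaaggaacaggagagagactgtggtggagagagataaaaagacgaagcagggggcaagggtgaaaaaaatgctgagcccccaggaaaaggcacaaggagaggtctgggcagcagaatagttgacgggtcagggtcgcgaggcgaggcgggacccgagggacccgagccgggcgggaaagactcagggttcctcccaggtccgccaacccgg

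The Tcf/Lef letters occurred in the Dkk1 and Sp5 promoters. In Dkk1, CTTTGTT began 98 bases before the start. In Sp5, CTTTGAT began 104 bases before the start and CTTTGTT lay on the opposite strand from 222 bases before it. Among all 32851 promoters of the same length, 3.21% held CTTTGAT, 5.03% held CTTTGTT and 8.06% held either. The longer T-box letters TCACACC were in none of the 8 promoters listed for the 6 genes, against 3.33% of all promoters. The shorter GTGTGA, whose reverse complement lies within TCACACC, occurred in the printed Sp8 promoter on the opposite strand, 200 bases before the start, and in another Sp8 promoter, against 12.3% of all promoters. A match is only a match of letters, and peaks away from promoters were not searched.

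All 8 genes had EoGFP, EoVP16 and EoV5 peaks within 50 kb, and 6 of the 8 had BraGFP peaks. Sp8 and Fzd10 had no BraGFP peak. In the same window, 81.1% of coding genes had EoGFP, 76.5% BraGFP, 84.2% EoVP16 and 83.0% EoV5 peaks, so presence of a peak did not set the 8 genes apart. The 8 genes had a median of 5.5 EoGFP, 1.5 BraGFP, 4 EoVP16 and 5 EoV5 peaks, against medians over all coding genes of 3 EoGFP, 2 BraGFP, 3 EoVP16 and 3 EoV5 peaks. EoGFP peaks outnumbered BraGFP peaks at 8 of 8 genes, and this was the case at 47.1% of all coding genes, with the reverse at 24.0%. The excess was 6 peaks at Sfrp5, 5 at Axin2, 4 at Sp5 and at Notum, 3 at Dkk1 and at Fzd10, 2 at Sp8 and 1 at Sfrp1. Many of these peaks were nearer to another coding gene. Counting only peaks nearest to the named gene left 3 EoGFP and 1 BraGFP peak at Sfrp5, 3 and 1 at Sp5 and 1 and 0 at Notum. It left 4 and 0 at Dkk1 and changed neither count at Axin2, Sfrp1, Sp8 or Fzd10. Within 10 kb, 7 of the 8 genes had an EoGFP peak (65.2% of all coding genes), 3 a BraGFP peak (53.0%), 6 an EoVP16 peak (71.1%) and 5 an EoV5 peak (62.2%). In the 50 kb window, an excess of 5 or more was found at 5.27% of all coding genes. An EoGFP peak without any BraGFP peak, as at Sp8 and Fzd10, was found at 9.31%. At the edge of the window, the farthest peak counted was a BraGFP peak 48.8 kb from Notum, and the nearest not counted was an EoVP16 peak 51.9 kb from Axin2.

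**Figure D1:**
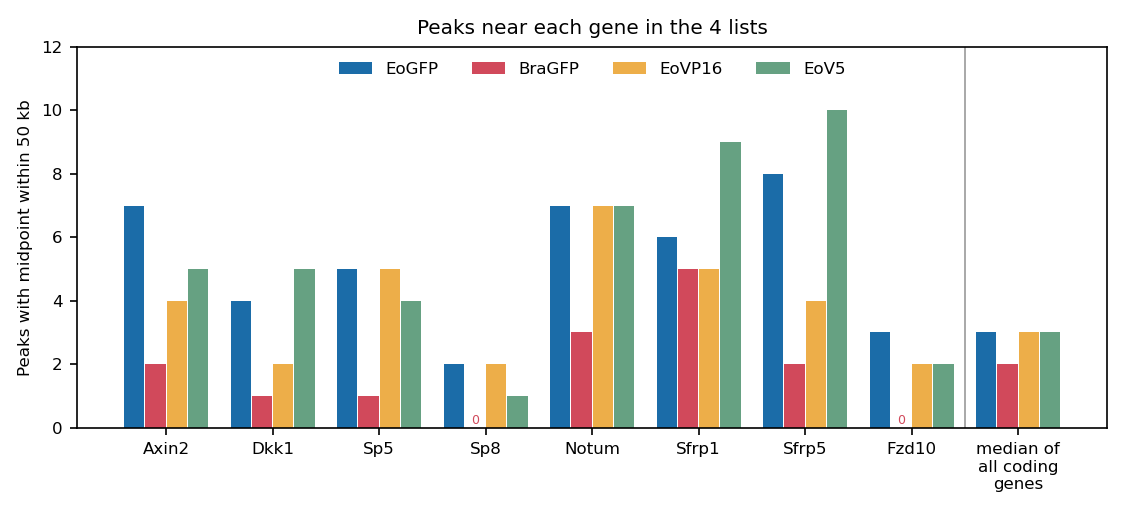
Number of peaks with a midpoint within 50 kb of each gene (vertical axis) in the EoGFP, BraGFP, EoVP16 and EoV5 lists, with the median over all 21887 coding genes at the right. The EoGFP bar is above the BraGFP bar at each of the 8 genes, and BraGFP is 0 at Sp8 and Fzd10.

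Axin2 (chr11:108917828-108950783, mm10) encodes a scaffold of the destruction complex and is a widely used readout of Wnt signalling. Its window held 7 EoGFP, 2 BraGFP, 4 EoVP16 and 5 EoV5 peaks, and no other coding gene touched it. One site was held by all 4 lists, and it lay over the listed start (EoVP16 peak chr11:108920059-108922618, mm10). The summit pileup of a peak is the number of fragments stacked on its highest base. It was 69 in the EoVP16 peak, with its summit at chr11:108920285, and 87 in the EoV5 peak, with its summit apart from it at chr11:108921230. The site was broad in 3 of the lists, with widths of 2150 bp in BraGFP, 2560 bp in EoVP16 and 2461 bp in EoV5, and measured 1221 bp in EoGFP.

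Another 3 Axin2 sites were held by the 3 Eomes lists and not by BraGFP. The one upstream, with its EoVP16 midpoint 8.05 kb before the gene span, had a pileup of 96 in EoVP16 and 177 in EoV5. The one within the gene had 39 in EoVP16 and 79 in EoV5, and the one 34.0 kb beyond the gene had 45 in EoVP16 and 206 in EoV5. The other BraGFP peak stood alone below the gene span. Brachyury thus had its shared Axin2 site at the start, and the Eomes constructs shared 3 more on either side of it.

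Dkk1 (chr19:30545876-30549496) encodes a secreted inhibitor that binds the Lrp co-receptor. Its window held 4 EoGFP, 1 BraGFP, 2 EoVP16 and 5 EoV5 peaks. The 3 Eomes lists shared the start (EoV5 peak chr19:30548379-30550612), with pileups of 71 in EoVP16 and 135 in EoV5. They also shared a site about 4.7 kb upstream (EoV5 peak chr19:30553416-30554877), with pileups of 64 in EoVP16 and 640 in EoV5. The EoV5 pileup was thus higher upstream than at the start, while the EoVP16 values were 64 upstream and 71 at the start, with counting intervals of 49.3 to 81.7 and 55.5 to 89.6 that overlapped. EoGFP and EoV5 alone shared sites 2.88 and 35.6 kb beyond the end of the gene, where the EoV5 pileups were 223 and 213. The single BraGFP peak lay 29.6 kb upstream, overlapped no other list and was closest to Prkg1, a kinase gene.

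Notum (chr11:120653788-120661193) encodes a secreted carboxylesterase that removes the lipid from Wnt ligands. Its window held 7 EoGFP, 3 BraGFP, 7 EoVP16 and 7 EoV5 peaks, but it was also touched by 9 other coding genes. Notum itself was the nearest coding gene for 1 EoGFP and 1 EoVP16 peak, which overlapped at a site inside the gene (EoVP16 peak chr11:120658799-120659604, pileup 43). The other peaks were closest to Mafg, Pcyt2, Aspscr1, Myadml2, Pycr1, Sirt7 or Anapc11. None of the 3 BraGFP peaks near Notum overlapped an EoGFP peak. Over the whole BraGFP list only 29.3% of peaks overlapped EoGFP, so 3 peaks are too few to set Notum apart. The BraGFP peak 19.9 kb away overlapped EoVP16 and EoV5 peaks with pileups of 58 and 62.

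Sfrp1 (chr8:23411383-23449632) and Sfrp5 (chr19:42197971-42202252) encode secreted proteins with a Frizzled-like domain that bind Wnt ligands. Sfrp1 had 6 EoGFP, 5 BraGFP, 5 EoVP16 and 9 EoV5 peaks, and Sfrp5 had 8 EoGFP, 2 BraGFP, 4 EoVP16 and 10 EoV5 peaks. Sfrp1 was the gene with most BraGFP peaks of the 8, at the 88.3 percentile of all coding genes, while its 6 EoGFP peaks stood at the 87.3 percentile, ties being placed at their middle. No other coding gene touched its window. All 4 lists shared 6 sites near the 8 genes, of which 3 were at Sfrp1 and 2 at Sfrp5.

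The 3 sites of all lists at Sfrp1 lay 23.5 kb below the gene, inside it and 20.7 kb above it. At the site inside the gene (EoV5 peak chr8:23435075-23436241) the pileup was 98 in EoVP16 and 389 in EoV5. The site below the gene had 54 in EoVP16 and 188 in EoV5, and the site above it had 41 in EoVP16 and 79 in EoV5. A further site 12.6 kb below Sfrp1 was held by BraGFP, EoVP16 and EoV5 without EoGFP. At Sfrp1, 4 of the 5 BraGFP peaks overlapped an Eomes construct, and 3 of them overlapped EoGFP. Over the whole BraGFP list, 29.3% of peaks overlapped EoGFP, 34.0% EoVP16 and 29.4% EoV5. The share overlapping any Eomes list was not computed, and 5 peaks are too few to set Sfrp1 apart. Near the lower-numbered end of the gene, where no start is listed, EoVP16 had a peak of 2701 bp, and EoGFP and EoV5 shared a separate narrower site, with an EoV5 pileup of 238.

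The tallest peak near the 8 genes in the EoVP16 and EoV5 lists, the ones that give heights, was at Sfrp5. An EoV5 peak 18.0 kb upstream (chr19:42219760-42220698) reached a pileup of 1355, was held by all 4 lists, and had a pileup of 98 in EoVP16. The other Sfrp5 site of all lists, 27.1 kb beyond its end and nearest to Zfyve27, had pileups of 104 in EoVP16 and 105 in EoV5. These stood at the 90.7 percentile of the EoVP16 list and the 54.2 percentile of the EoV5 list. A run of EoV5 peaks lay 11.7 to 36.1 kb upstream, most of them shared with EoGFP and some nearest to Golga7b. The peak over the Sfrp5 start was held by EoV5 alone, with a pileup of 99. Sfrp5 had 10 EoV5 peaks, which placed it at the 97.6 percentile of coding genes.

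Sp5 (chr2:70474923-70477726) and Sp8 (chr12:118846288-118852578) encode zinc-finger transcription factors of the Sp family that act downstream of Wnt signalling. The Sp5 window held 5 EoGFP, 1 BraGFP, 5 EoVP16 and 4 EoV5 peaks. Over and around the gene the lists parted. EoGFP alone had a peak at the start (chr2:70474256-70475462) and a peak of 2479 bp just upstream, and BraGFP and EoVP16 had peaks of 2699 bp and 2710 bp over the gene body that overlapped another EoGFP peak. EoV5 had no peak over Sp5, and its closest was 12.6 kb beyond the end. The EoVP16 pileup over the gene body was 40, near the minimum of 36 of its list.

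Farther downstream of Sp5, the 3 Eomes lists shared a pair of sites without BraGFP, 20.6 and 28.3 kb beyond the gene. The nearer had a pileup of 56 in EoVP16 and 134 in EoV5. The farther (EoV5 peak chr2:70505517-70506650) had 70 in EoVP16 and 568 in EoV5, the third tallest EoV5 peak of the 8 genes. Both were closer to Erich2 than to Sp5.

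Sp8 had the fewest peaks of the 8 genes, with 2 EoGFP, 0 BraGFP, 2 EoVP16 and 1 EoV5. Its only shared site, of EoGFP and EoVP16, lay 2.46 kb beyond the gene and had an EoVP16 pileup of 47. The EoVP16 peak over the second listed start had a pileup of 54, and the EoV5 peak 13.0 kb away had one of 68, not far above the minimum of 60 of its list. No Sp8 site was held by all 3 Eomes lists. The nearest BraGFP peak lay 373 kb from Sp8.

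Fzd10 (chr5:128601106-128604093) encodes a Frizzled receptor and is the only receptor gene among the 8. It had 3 EoGFP, 0 BraGFP, 2 EoVP16 and 2 EoV5 peaks, all upstream, and no other coding gene touched its window. The 3 Eomes lists shared 2 sites, 21.7 and 43.0 kb before the gene. The nearer had a pileup of 84 in EoVP16 and 87 in EoV5, and the farther 81 in EoVP16 and 139 in EoV5. The third EoGFP peak stood alone 4.11 kb before the start. The nearest BraGFP peak was 81.9 kb from Fzd10.

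**Figure D2:**
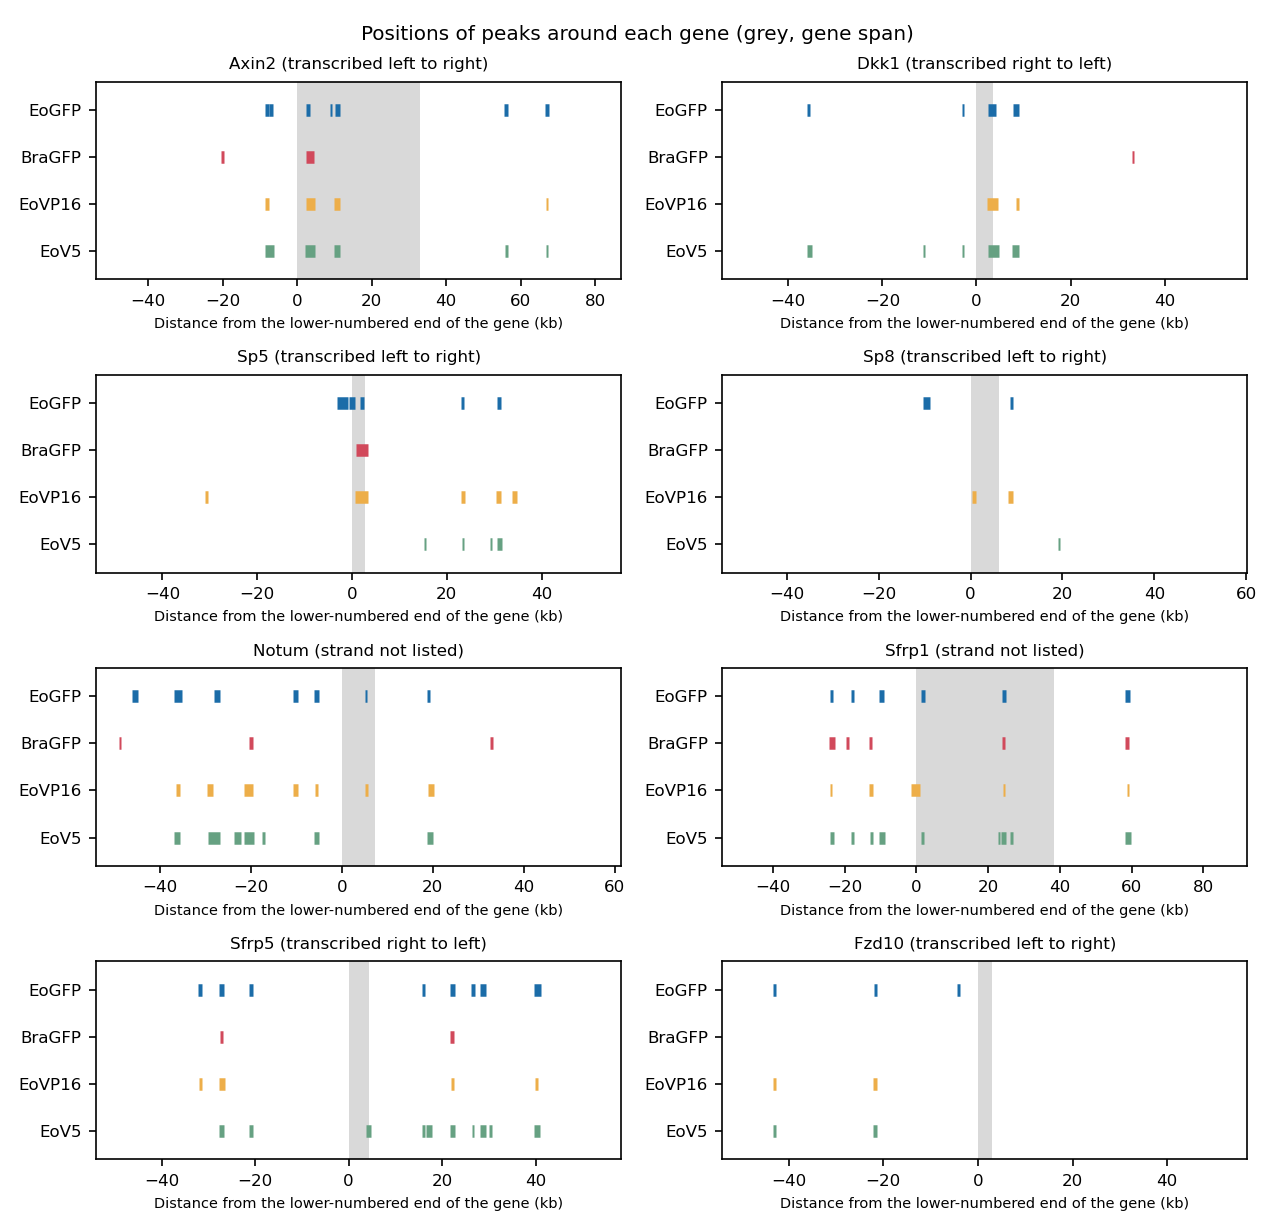
Position of each peak relative to the lower-numbered end of each gene (horizontal axis, kb) in the 4 lists (1 row each), with the gene span in grey. A BraGFP peak coincides with peaks of all 3 Eomes lists at the Axin2 start and at 3 sites of Sfrp1 and 2 of Sfrp5, and BraGFP is absent at Sp8 and Fzd10.

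When overlapping peaks of the 4 lists were joined, the 8 genes had 63 sites out of 71918. A BraGFP peak was present at 14 of the 63 sites (22.2%), against 38.1% of all sites. Of the 63 sites, 5 were held by BraGFP alone (7.94%, against 23.0% of all sites) and 6 by EoGFP alone (9.52%, against 2.03%). The 3 Eomes lists without BraGFP held 14 sites (22.2%, against 14.5%), and all 4 lists held 6 (9.52%, against 8.30%). EoGFP and EoV5 alone held 10 sites (15.9%, against 8.61%), and EoGFP and EoVP16 alone held 4 (6.35%, against 4.50%). BraGFP, EoVP16 and EoV5 without EoGFP held 2 sites (3.17%, against 1.02%), at Notum and Sfrp1, and EoGFP, BraGFP and EoVP16 held 1 (1.59%, against 1.48%), over the Sp5 gene body. The Eomes-without-Brachyury class had 4 sites at Notum, 3 at Axin2, 2 each at Dkk1, Sp5 and Fzd10, 1 at Sfrp5 and none at Sfrp1 or Sp8. The nearest coding gene was Pcyt2, Mafg, Myadml2 or Aspscr1 at the 4 Notum sites, Erich2 at both Sp5 sites and Golga7b at the Sfrp5 site. At the Notum site nearest to Mafg, the EoGFP and EoVP16 peaks did not overlap each other and were joined through an EoV5 peak of 2688 bp. Sites held by EoV5 alone numbered 11 (14.5% of all sites were of this kind) and those held by EoVP16 alone 4 (13.6% of all sites). The 71918 sites were not limited to those within 50 kb of a gene, as the 63 were, and the lists differ in nearness to genes. Within 5 kb of a coding gene end lay 40.5% of EoGFP, 28.4% of BraGFP, 41.3% of EoVP16 and 27.7% of EoV5 peaks. Pileup minimum also differs between lists. The part of position or of pileup minimum in these classes was not tested.

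Of the 42 EoGFP peaks, 7 overlapped a BraGFP peak, or 16.7% with an exact 95% binomial interval of 6.97 to 31.4%, against 27.1% of the whole EoGFP list. In the other direction, 7 of the 14 BraGFP peaks touched EoGFP, or 50.0% (23.0 to 77.0%), against 29.3% of the whole BraGFP list. Both whole-list shares lay inside the intervals, which cover counting error only. Of the 31 EoVP16 peaks, 22 overlapped EoV5, or 71.0% (52.0 to 85.8%), against 56.9% of the list, and of the 43 EoV5 peaks 22 overlapped EoVP16, or 51.2% (35.5 to 66.7%), against 53.1%. EoGFP peaks overlapped EoV5 in 31 of 42 cases (79.6% of the whole list) and EoVP16 in 24 of 42 (70.9% of the whole list). Of the 12 overlap shares between lists, 2 had an interval that left out the share of the whole list. EoVP16 peaks overlapped EoGFP in 24 of 31 cases, or 77.4% (58.9 to 90.4%), against 57.9% of the list, and BraGFP peaks overlapped EoVP16 in 9 of 14 cases, or 64.3% (35.1 to 87.2%), against 34.0%. In both cases the lower limit was close to the whole-list share. The intervals take peaks as independent, although they cluster at 8 genes and each pair of lists enters in both directions, so this count is not a test. EoV5 peaks overlapped EoGFP in 30 of 43 cases (61.2% of the list), and BraGFP peaks overlapped EoV5 in 8 of 14 (29.4% of the list). A BraGFP peak was overlapped by 9 of 31 EoVP16 peaks (25.7% of that list) and 8 of 43 EoV5 peaks (20.9% of that list).

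**Figure D3:**
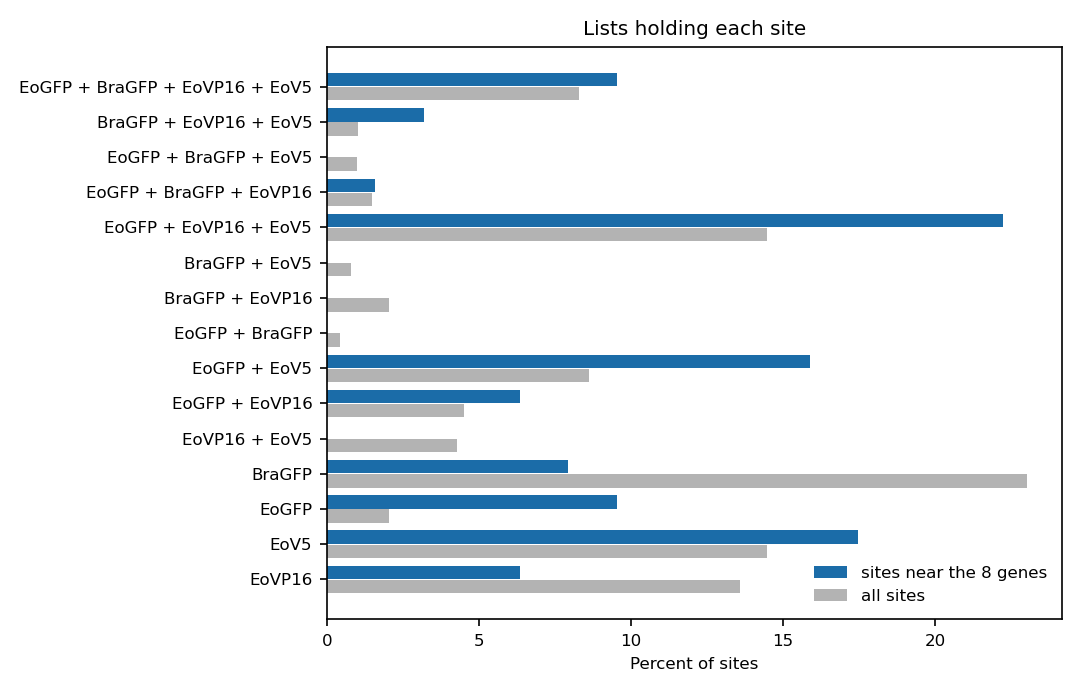
Percent of joined sites (horizontal axis) held by each combination of lists, for the 63 sites near the 8 genes (blue) and for all 71918 sites (grey). Sites of BraGFP alone made up 7.94% near the 8 genes and 23.0% of all sites, and sites of the 3 Eomes lists made up 22.2% and 14.5%. Sites near the 8 genes include those closer to another coding gene, and all sites were not limited by distance to a gene.

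Height could be compared in EoVP16 and EoV5, whose lists give pileups. The 31 EoVP16 peaks had pileups of 39 to 104 with a median of 61, against a median of 54 in the whole list. The 43 EoV5 peaks ranged from 62 to 1355 with a median of 105, against 99 in the whole list. Both medians lay between the quartiles of their whole lists, which were 43 and 73 in EoVP16 and 75 and 156 in EoV5. One of 31 EoVP16 peaks exceeded the 90th percentile of its list (9.75% of all did, since tied values fell on the limit), and so did 4 of 43 EoV5 peaks (10.0% of all). Those 4 were the peaks of 1355 at Sfrp5, 640 at Dkk1, 568 at Sp5 and 389 at Sfrp1, and the EoVP16 peak was that of 104 at Sfrp5.

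At 22 sites with both an EoVP16 and an EoV5 peak, the ratio of EoVP16 to EoV5 pileup had a median of 0.534, against 0.590 over 20617 such pairs in the genome. The peaks of a pair overlapped, but their summits could lie apart, as at the Axin2 start, so a ratio need not compare the same base. The exact 95% interval of the ratio lay below the genome median at 7 of the 22 sites (33.1% of all pairs) and above it at 4 (26.9% of all pairs), and it spanned the median at 11. The ratio was 0.0723 (0.0583 to 0.0888) at the tall Sfrp5 site, 0.100 (0.0761 to 0.129) at the upstream Dkk1 site, 0.123 (0.0947 to 0.158) at the far Sp5 site and 0.252 (0.200 to 0.315) inside Sfrp1. These sites were named for their EoV5 height after the values were seen, so the ratios describe them and test nothing.

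Pairs of like EoV5 height, within 20% of the EoV5 pileup at a site, gave a closer comparison. At the tall Sfrp5 site the EoVP16 pileup was 98, against a median of 300.5 over 106 such pairs, with quartiles of 137.5 and 571. At the upstream Dkk1 site it was 64, against a median of 115 over 598 pairs, with quartiles of 74 and 173. EoVP16 was below the lower quartile at both. At the far Sp5 site it was 70, against a median of 104 over 711 pairs (quartiles 67.5 and 160), and inside Sfrp1 it was 98, against a median of 79 over 1307 pairs (quartiles 55 and 120.5). Both of these were within the quartiles. Over all 22 pairs, EoVP16 was below the lower quartile of pairs of like EoV5 height at 6, which were 2 each at Axin2 and Sfrp1 and 1 each at Dkk1 and Sfrp5, against 23.9% of all pairs. That count is near the background share. At the other end, the ratio reached 1.03 (0.731 to 1.45) at the Notum-window site near Aspscr1, 0.990 (0.748 to 1.31) at the Sfrp5 site near Zfyve27 and 0.966 (0.707 to 1.32) at the nearer Fzd10 site.

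**Figure D4:**
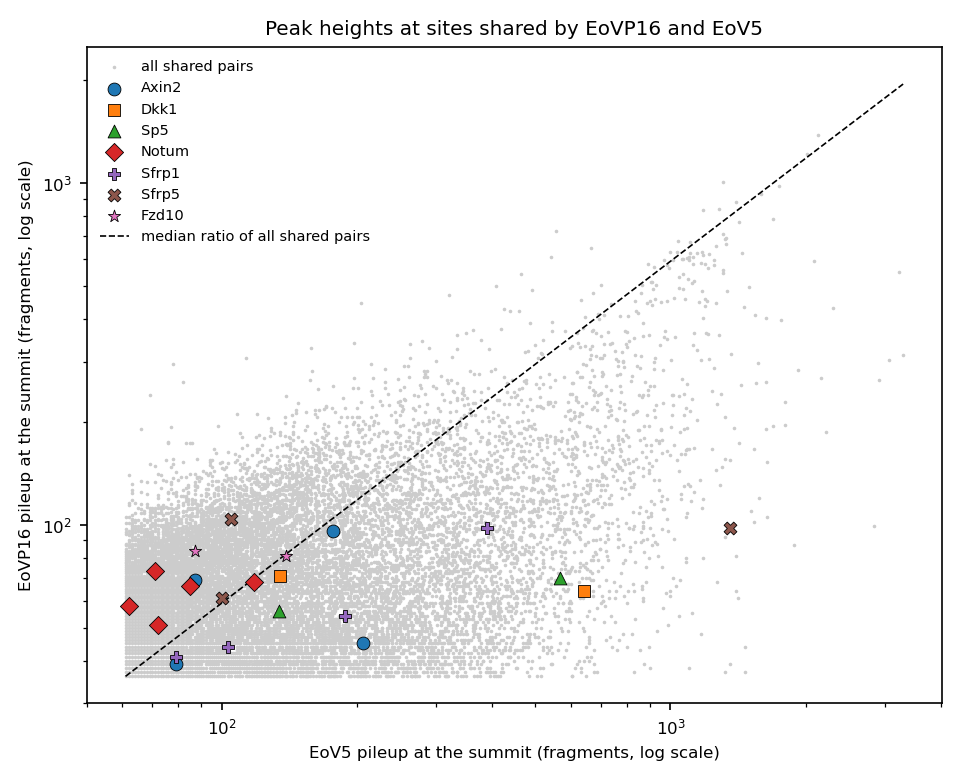
EoVP16 pileup (vertical axis, fragments, log scale) against EoV5 pileup (horizontal axis, fragments, log scale) at sites shared by both lists, with the 22 pairs near the 8 genes as coloured symbols, all 20617 pairs in grey and the median ratio of 0.590 as a dashed line. The Sfrp5, Dkk1 and Sp5 pairs with EoV5 pileups of 1355, 640 and 568 lie farthest below the line.

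Within 1 kb of either end of any coding gene were 9 of 42 EoGFP peaks (27.7% of the list), 2 of 14 BraGFP peaks (16.1%), 11 of 31 EoVP16 peaks (27.9%) and 7 of 43 EoV5 peaks (16.1%). The 4 whole-list shares were inside the exact 95% intervals of these counts. The named gene was the nearest coding gene for 29 of 42 EoGFP, 9 of 14 BraGFP, 18 of 31 EoVP16 and 27 of 43 EoV5 peaks. Those nearest to another gene were mostly in the Notum window and at the far sites of Sp5 and Sfrp5, with Abcb5 near Sp8, Myo3b near Sp5 and Prkg1 near Dkk1 for 1 peak each.

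A wider list of 82 Wnt pathway genes, all found in the gene table, was counted in the same way. An EoGFP peak was near 77 (93.9%, against 81.1% of all coding genes) and a BraGFP peak near 72 (87.8%, against 76.5%). An EoVP16 peak was near 80 (97.6%, against 84.2%) and an EoV5 peak near 78 (95.1%, against 83.0%). EoGFP peaks outnumbered BraGFP peaks at 53 of 82 (64.6%, against 47.1% of all coding genes), and the reverse held at 22, with 7 equal. By role, EoGFP was ahead at 14 of 19 ligand genes, 10 of 14 receptor genes, 8 of 13 genes of secreted inhibitors and their partners, and 5 of 10 feedback genes. It was ahead at 6 of 11 destruction-complex and effector genes, 4 of 7 Sp genes and 6 of 8 other targets. The median EoGFP and BraGFP counts were 5 and 2 for ligands, 2 and 2 for secreted inhibitors and 4 and 5 for Sp genes. Dkk1, Notum, Sfrp1 and Sfrp5, the secreted inhibitors among the 8, had 4 to 8 EoGFP and 1 to 5 BraGFP peaks. Notum was the nearest coding gene for 1 of its 7 EoGFP peaks and Sfrp5 for 3 of its 8, while Dkk1 and Sfrp1 were nearest to all of theirs. Counts in the wider list were likewise not limited to nearest genes.

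The genes of each group with most EoGFP and BraGFP peaks together differed in which list was ahead. Wnt9b had 8 EoGFP and 4 BraGFP peaks, while Wnt5b had 8 and 10. Ror1, a receptor tyrosine kinase, had 10 and 4, and Fzd7, Lrp5, Lrp6 and Ror2 tied behind it with 13 peaks of both lists together. Kremen2, a Dkk receptor, had 5 EoGFP and 3 BraGFP peaks and Draxin, another secreted inhibitor, had 6 and 2. The excess lay with BraGFP at Rnf43, a ligase that removes Frizzled from the membrane, with 4 EoGFP and 6 BraGFP peaks, and at Tcf7l1, a Tcf factor known as a repressor, with 6 and 13. Dact2 had 8 and 3, the kinase gene Gsk3a had 9 and 7, and Sp2 and Sp7 had 7 and 5 each. T, the gene of Brachyury itself, had 4 EoGFP and 5 BraGFP peaks, followed by Ccnd1 with 5 and 3 and Tnfrsf19 with 4 and 4.

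In the wider list, the genes whose 4 peak counts were closest to those of a member, by Euclidean distance over the 4 lists, were Wnt8a for Axin2 (1.41), Apcdd1 for Dkk1 (1.41), Wnt11 for Notum (1.41) and Fzd5 for Sp5 (1.00). Kremen1 was closest to both Sp8 and Fzd10 (1.00 each). Sfrp1, with Wnt11 and Sp7 at 3.00, and Sfrp5, with Lrp6 at 5.00, had no close match. For example, Fzd5 had 5 EoGFP, 0 BraGFP, 5 EoVP16 and 4 EoV5 peaks, 1 BraGFP peak fewer than Sp5 and equal to it otherwise.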

How the data were processed

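Peak lists of 4 constructs were analysed, with samples grouped by construct and treatment as their titles give them. The build was mm10/GRCm38 and MACS2 2.1.1.20160309.4, Bowtie2 2.3.4 and bedtools 2.27.0 were among the tools, per the submitters' processing notes, which give no order or settings. It was not stated how 2 libraries were turned into 1 list for EoGFP and for BraGFP. The deposited GFP lists hold positions only. In the deposited EoV5 and EoVP16 lists, which follow the column order of MACS2 without a header, the signal is the summit pileup in fragments, the ratio is the fold enrichment over the caller's background, and the −log10 p and q were not used. The minimum pileups come from the names of the deposited lists. Entries on unplaced contigs (4 to 7 per list) and repeated entries (4 to 46) were removed. Starts are printed as the lists give them, and a count from 0 or from 1 in the GFP lists, a difference of 1 bp, was not stated.

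Peaks overlapping by at least 1 bp were called shared. Each EoVP16 peak was paired with the EoV5 peak sharing most bases, and the 2 summits were not required to coincide. Genes and promoters came from RefSeq GRCm38.p6 tables, and motifs were searched in the 250 bases before each start only, since no genome sequence was used here. Shares and ratios carry exact 95% intervals that cover counting error only. Pandas 2.3.3, NumPy 2.4.6 and SciPy 1.17.1 were used, and the counting and overlap code was tested on simulated intervals. Named genes were all 8 members, the nearest genes of their peaks, in each group of the wider list the 2 genes (and ties) highest in the sum of EoGFP and BraGFP peaks and the closest match in counts of each member. The members and lists were chosen with earlier results of these data known. Libraries without doxycycline, input, H3K27ac, ATAC-seq and RNA-seq libraries were not analysed here.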

Additional observations from a re-analysis of the deposited data

How the results depend on the processing

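Of 96 recomputed values, 72 stayed close to those reported and 24 moved further. Close meant counts and median pileup ratios within 1.5 times and shares inside the exact interval. Such intervals were wide for BraGFP (23.0 to 77.0% for overlap with EoGFP), so staying inside them says little. The median EoV5 pileup near the 8 genes was 1.06 times that of the whole list within 50 kb, 1.36 times within 10 kb (13 peaks) and 1.01 times within 100 kb. For EoVP16 these values were 1.13, 1.16 and 1.09. EoGFP outnumbered BraGFP at 7 of 8 genes within 10 kb and at 6 of 8 in the wider 50% of each list, and at 8 of 8 with windows of 25 and 100 kb, with any base in the window or with nearest genes only (these settings were chosen after seeing the data). The share of all coding genes was computed for the main 50 kb setting only (47.1%), so these counts have no background beside them. Within 10 kb, 3 genes had a BraGFP and 5 an EoV5 peak, and the peaks numbered 19 for EoGFP, 3 for BraGFP, 12 for EoVP16 and 13 for EoV5, fewer because the window is smaller. Within 100 kb EoVP16 had 49. The stricter 50% of each list left 25 EoGFP and 25 EoV5 peaks. Counting a peak only for its nearest coding gene left 9 BraGFP, 18 EoVP16 and 27 EoV5 peaks. All 3 BraGFP peaks within 10 kb overlapped EoGFP (100%), and 45.2% of EoVP16 peaks overlapped the taller 50% of EoV5. Whole-list shares were not computed for either setting, so neither value can be set against the genome. Within 5 kb of a gene end lay 47.6% of EoGFP peaks (40.5% of the whole list), 54.8% of EoVP16 peaks (41.3%) and 39.5% of EoV5 peaks (27.7%). The named gene was nearest for 42.9% of EoGFP, 38.7% of EoVP16 and 34.9% of EoV5 peaks when all annotated genes counted, and for 94.7% of EoGFP, 100% of BraGFP, 91.7% of EoVP16 and 92.3% of EoV5 peaks within 10 kb. No paired analysis was possible because each construct gave 1 peak list and no result comes from a test. Unknown depth and unequal pileup minimums limit every comparison between lists.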

Other observations

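Peak width, the only measure of size in the GFP lists, was also recorded. The 42 EoGFP peaks near the 8 genes were 1022.5 bp wide at the median and those of the whole list 871 bp. The 14 BraGFP peaks had a median of 797.5 bp and their whole list one of 587 bp. The widest BraGFP peaks were those over the Sp5 gene body (2699 bp) and the Axin2 start (2150 bp), above 99.6% and 98.9% of BraGFP peaks. For EoVP16 the medians were 895 bp near the 8 genes and 793 bp in its list, and for EoV5 978 bp and 820 bp.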
